A study of Solanum lycopersicum with 26 samples.

Results

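The embryo and the endosperm of mature tomato seeds (Solanum lycopersicum cv. Moneymaker) were compared in fruits that had ripened under dim light. The comparison took the 6 libraries labelled ST_DL, 3 of embryo (ST_DL_Em) and 3 of endosperm (ST_DL_End), out of the 26 libraries of the series. Fruits were detached at the breaker stage, 63 days after flowering (DAF), and kept for 7 days at the standard temperature (ST) of 23 °C by day and 20 °C by night, with 16 h of dim light (DL) at 25 µE. Seeds were dissected by hand at 70 DAF, and no other treatment separated the embryo and endosperm groups. The rest of the series ripened under high light (HL, 300 µE) at ST, or at high temperature (HT, 32 °C by day and 26 °C by night) under HL or DL, with 4 embryo libraries each in ST_HL and HT_DL and 3 in every other group. Each replicate was made of 10 seeds, which per the study's methods came from 2 fruits, and no source used here says that replicates came from separate plants. The p-values therefore measure the spread between these samples, which may be technical in part.

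The embryo is the young plant of the seed, and its plastids hold photosynthetic proteins while the seed is green. In tomato the endosperm stays alive at maturity and encloses the embryo. Its walls must be loosened before the root tip can emerge, by enzymes that act on wall polysaccharides such as pectin and xyloglucan. Abscisic acid holds the seed dormant and gibberellin promotes germination, and both act through gene expression in embryo and endosperm. Light reaches these processes through photoreceptors and through the plastids.

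Counts estimated per transcript were available for 33976 gene IDs, of which 7147 had no count in the 6 libraries. Total counts lay between 20775525 and 21019257 per library. After the filter on low counts 18434 genes were tested, with a biological coefficient of variation of 0.143. Across genes, log2 CPM (the count scaled by the TMM-adjusted size of its library) correlated at 0.980 to 0.992 between replicates of a tissue and at 0.779 to 0.806 between tissues. The first principal component held 91.1% of the variance and separated the tissues. The second held 3.78%, and ST_DL_Em_1 (41.1) and ST_DL_End_1 (24.0) lay apart from their replicates on it. Counts of the least different pair of replicates, ST_DL_End_2 and ST_DL_End_3, gave a chi-square of 3.97 per degree of freedom, so no pair was treated as 1 library. The extraction kit was run with the setting for alfalfa seed on embryos and with that for potato tuber on endosperm, so tissue and extraction setting cannot be told apart. In whole tissues, fewer cells of a type and less RNA per cell cannot be told apart either.

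Genes are given by their IDs, and what is known of them comes from the part of the study's GO and Mapman annotations used here. The GO terms covered 1315 IDs, numbered 00 or on the first part of chromosome 1, and the Mapman bins covered 1536 IDs of the count table. Photoreceptors, expansins, xyloglucan transferases of other chromosomes and marker genes of embryo, endosperm or seed coat could not be found in it. The tissue labels were therefore not checked against marker genes.

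Embryo and endosperm differed in 5847 genes, 31.7% of those tested. DEGs were genes with a Benjamini-Hochberg adjusted p below 0.05 in edgeR's quasi-likelihood test and an absolute log2 fold change above 1. At the adjusted p alone 65.5% of the tested genes passed. With the fold threshold 2507 were higher in embryo (13.6%) and 3340 were lower in embryo (18.1%). The 3 embryo libraries did not overlap the 3 endosperm libraries in 71.4% of all tested genes, and the median log2 fold change over them was 0.01. No count at all was found in any embryo library for 254 tested genes and in any endosperm library for 22. A count of 0 allows up to 0.141 CPM in an embryo library and 0.147 CPM in an endosperm library. With at least 1 CPM in every library of their own tissue and no count in the other, 9 genes were found in embryo alone and 133 in endosperm alone. ST_DL_Em_1 carried slightly more of the genes that were lower in embryo, whose summed level was 37681, 33500 and 33105 CPM in embryo replicates 1 to 3 and on average 203058 CPM in endosperm. The part of this difference in any result was not tested.

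Among described genes with at least 10 CPM in a tissue and no overlap between the tissues, the 5 with the largest fold change in each direction were taken first. In the embryo Solyc01g006610.2.1, with a GO term for dioxygenase activity, had 86.2, 74.0 and 74.2 CPM, against 0.29, 1.19 and 0.685 CPM in endosperm. Its log2 fold change was 6.75 (standard error 0.265, edgeR adjusted p = 2.89e-07). Its neighbour by ID Solyc01g006600.3.1, with GO terms for fatty acid biosynthesis and oxidation, had a log2 fold change of 5.15. A lipase (Solyc02g094040.3.1, 4.90) and a glycerol-3-phosphate acyltransferase (Solyc07g056320.4.1, 4.87), which starts glycerolipid synthesis, followed. Solyc00g500324.1.1, a protein transport gene of the plastid inner membrane by its GO terms, had 3.84, 26.7 and 7.81 CPM in embryo and no count in endosperm, and was at least 86.9-fold higher in embryo. Its 3 embryo libraries thus spread more widely than those of the other genes named in this paragraph. This gene was also higher in embryo in ST_HL, but it was not a DEG in HT_HL (log2 fold change 0.21, edgeR adjusted p = 0.911). Its HT_HL means were 3.87 CPM in embryo and 3.37 CPM in endosperm, on the scale of all libraries. In HT_DL it was not tested.

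In the opposite direction stood a gene of hormone turnover. Solyc01g058030.2.1 carries the GO term for gibberellin 2-beta-dioxygenase activity, the reaction that inactivates gibberellins. It had 0.0474, 0.0466 and 0 CPM in embryo, against 23.4, 20.0 and 17.2 CPM in endosperm. That is 2 counts against 1239, a ratio of 646 in favour of endosperm with a 95% counting interval of 178 to 5342. Solyc01g056530.2.1, an oligopeptide transporter by its GO terms, was lower in embryo by a log2 fold change of -7.92, with 0.142, 0.14 and 0.0468 CPM against 26.6, 27.7 and 29.8 CPM in endosperm. The E1 alpha subunit of 2-oxoisovalerate dehydrogenase (Solyc06g059840.4.1, -7.19), which takes part in the breakdown of branched-chain amino acids, and a monoacylglycerol lipase (Solyc04g010250.3.1, -6.09) were also lower. The last gene in this group, Solyc01g044551.1.1, an oxidoreductase by its GO term, had 1.09, 1.63 and 1.08 CPM in embryo and 115, 132 and 140 CPM in endosperm.

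**Figure D1:**
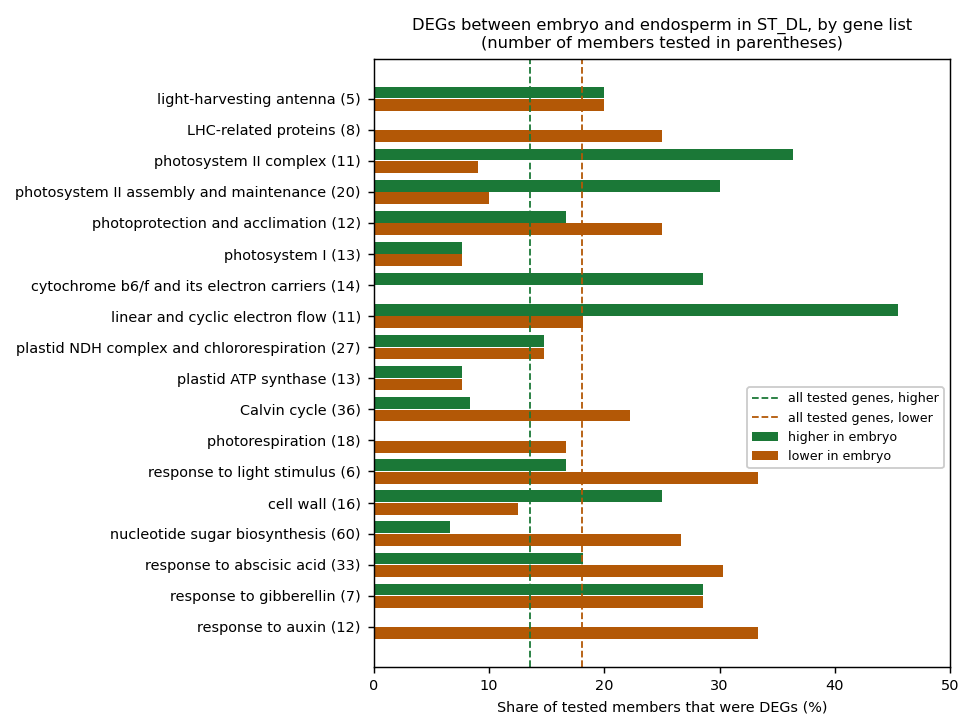
Share of the tested members of each light, cell wall and hormone list that were DEGs, in percent, with bars for genes higher in embryo and for genes lower in embryo and dashed lines for all tested genes (13.6% higher and 18.1% lower). Electron flow and photosystem II have long bars for higher genes, and auxin, abscisic acid and nucleotide sugars have longer bars for lower genes, each over few members.

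Light genes were described first by the machinery that captures and uses light. Of 339 genes in the photosynthesis bins, 189 were tested, and 30 were higher and 32 were lower in embryo. These are 15.9% and 16.9% of the members, beside 13.6% and 18.1% of all tested genes, and the median log2 fold change was 0.04. Embryo and endosperm libraries did not overlap for 125 members (66.1%, beside 71.4% of all tested genes). The photosynthesis genes as a whole therefore stood near all tested genes, while their parts had different counts, as the plot of DEG shares by list shows.

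The light-harvesting antenna, the pigment proteins that pass light energy to the photosystems, was little expressed in both tissues. Only 5 of its 30 genes passed the filter, and 10 had no count in the 6 libraries. The antenna protein LHCa3 of photosystem I (Solyc12g011280.2.1) had 2.51, 1.96 and 1.12 CPM in embryo and 0.338, 0.149 and 0.196 CPM in endosperm, for a log2 fold change of 3.0 (standard error 0.446, edgeR adjusted p = 0.000443). LHCb4 of photosystem II (Solyc09g014520.3.1) had the opposite order, with 0.0474, 0.28 and 0.655 CPM in embryo, against 4.16, 2.78 and 2.74 CPM in endosperm (-3.27). Both members lay at a few CPM or less. The remaining 3 tested members (Solyc01g105030.3.1, Solyc04g082920.4.1 and Solyc05g056060.4.1) had log2 fold changes between -0.11 and 0.98 and were not DEGs. Without ST_DL_Em_1, a choice made after the data were seen, the filter was applied anew and 3 genes of the list were lower in embryo. None of the 3 tested members that were not DEGs became one there, so the set of tested members had changed.

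Proteins related to the antenna had 0 of 8 tested members higher and 2 lower in embryo (0% and 25%, beside 13.6% and 18.1% of all tested genes). Early light-induced proteins (ELIPs) bind pigments and accumulate in greening or light-stressed plastids. The 2 tested ELIP genes lie next to each other by ID and differed in their tissue balance. Solyc09g082680.3.1 had 61.2, 50.3 and 51.6 CPM in embryo and 57.8, 62 and 58.9 CPM in endosperm, which overlap (log2 fold change -0.13, edgeR adjusted p = 0.219). Solyc09g082690.3.1 had 0.806, 1.26 and 1.92 CPM in embryo, against 6.77, 7.64 and 10.1 CPM in endosperm (log2 fold change -2.62, standard error 0.301, edgeR adjusted p = 0.000101). Reads of such close copies could be divided between them by the counting. The stress-enhanced protein SEP5 (Solyc07g006490.3.1) was the other DEG of this list, with a log2 fold change of -1.19.

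Photosystem II, which splits water, had 4 higher and 1 lower gene among 11 tested members, a median log2 fold change of 0.19. That is 36.4% and 9.09%, beside 13.6% and 18.1% of all tested genes. PsbO (Solyc02g065400.3.1), the protein that stabilizes the manganese cluster of the oxygen-evolving complex, had 14.7, 15.1 and 14.4 CPM in embryo and 5.61, 6.05 and 6.51 CPM in endosperm. Its log2 fold change was 1.28 (standard error 0.105, edgeR adjusted p = 1.46e-05). PsbP (Solyc07g044860.3.1, 2.46), PsbR (Solyc12g017250.2.1, 1.49) and the ID of the cytochrome b559 subunits PsbE and PsbF (Solyc00g500021.1.1, 1.66) were higher as well, at under 4 CPM in embryo. The call of PsbR was lost in 4 of 15 alternatives, among them those without ST_DL_Em_3, ST_DL_End_2 or ST_DL_End_3, with log2 fold changes of 1.18 to 1.89. PsbY (Solyc10g077120.3.1) had 0.379, 0.746 and 1.40 CPM in embryo, against 2.22, 1.88 and 1.47 CPM in endosperm, an adjusted p of 0.0437 by edgeR that was above 0.05 or its fold under the threshold in 10 of 15 alternatives. IDs numbered 00 among the photosynthesis genes varied with the library. Their summed level over 21 tested members was 154, 515 and 508 CPM in embryo and 385, 507 and 541 CPM in endosperm, and 2 of them were DEGs.

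Of 20 tested factors that assemble and maintain photosystem II, 6 were higher in embryo and 2 were lower (30% and 10%, beside 13.6% and 18.1% of all tested genes), and their median log2 fold change was 0.46. LPA3 (Solyc06g068480.3.1), which in Arabidopsis helps to insert the core subunit CP43, had 11.1, 14.8 and 12.9 CPM in embryo and 2.17, 2.03 and 3.28 CPM in endosperm, for a log2 fold change of 2.37 (standard error 0.207, edgeR adjusted p = 2.05e-05). The next genes were chosen after their values were seen. HCF243 (Solyc07g062730.1.1), a factor for the core subunit D1 in Arabidopsis, had 35.8, 39.8 and 39.0 CPM in embryo, against 12.2, 13.8 and 13.1 CPM in endosperm (1.55). Psb27 (Solyc07g054290.1.1, 1.53), HHL1 (Solyc05g014310.3.1, 1.31), MET1 (Solyc01g005520.4.1, 1.53) and LPA1 (Solyc09g074880.4.1, 1.75) were also higher in embryo. Of the lower ones, Psb32 (Solyc01g098640.3.1) had 1 count over the 3 embryo libraries and 52 over the 3 endosperm libraries, and SCO2 (Solyc01g108200.3.1) had a log2 fold change of -1.19.

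Electron carriers followed the photosystems. Cytochrome b6/f and its carriers had 4 higher and 0 lower of 14 tested members (28.6% and 0%). Their median log2 fold change was 0.50. The 4 genes lay under 4 CPM (the assembly factors CCB2, CCB3 and CCB4 and the carrier cytochrome c6), and DESeq2 called 2. In linear and cyclic electron flow 5 of 11 tested members were higher and 2 were lower, the largest share of higher genes among the photosynthesis lists. These are 45.5% and 18.2%, beside 13.6% and 18.1% of all tested genes. The ferredoxin gene Solyc04g009710.2.1 had 6.55, 5.17 and 5.38 CPM in embryo and 0.338, 0.149 and 0.539 CPM in endosperm, for a log2 fold change of 4.03 (standard error 0.342, edgeR adjusted p = 1.73e-05). Ferredoxins are small iron-sulphur proteins that pass electrons from photosystem I on to other enzymes, in leaves and also in plastids without light capture. Of 7 tested ferredoxins, Solyc01g103920.3.1 was higher in embryo too (2.08), and 4 were not DEGs. The ferredoxin Solyc10g044520.3.1 went the other way with 31.4, 22.6 and 18.8 CPM in embryo, against 47.2, 50.2 and 55.8 CPM in endosperm (-1.07). Its call was lost without ST_DL_Em_3 (log2 fold change -0.92) and under a test against the fold threshold.

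Ferredoxin-NADP oxidoreductase passes the electrons of ferredoxin on to NADP. TIC62 and TROL, which in Arabidopsis anchor this enzyme to the thylakoid membrane, were both higher in embryo. TIC62 (Solyc10g051110.1.1) had 23.8, 20.0 and 22.8 CPM in embryo and 8.75, 9.57 and 8.81 CPM in endosperm, for a log2 fold change of 1.30 (standard error 0.101, edgeR adjusted p = 1.06e-05). TROL (Solyc10g009570.3.1) had a log2 fold change of 1.12, and the regulator LIR1 (Solyc09g092110.4.1) one of 2.10 at under 1 CPM. A gene of the oxidoreductase itself (Solyc02g083810.4.1) had 1.23, 1.21 and 1.68 CPM in embryo, against 2.66, 3.57 and 2.84 CPM in endosperm (-1.13), a call that was lost without ST_DL_End_2.

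The plastid NDH complex, which feeds electrons back into the chain, had 4 higher and 4 lower genes among 27 tested members (median 0.53). That is 14.8% in each direction, beside 13.6% and 18.1% of all tested genes. The ndhA-specific mRNA splicing factor (Solyc02g068760.4.1) had 27.8, 28.4 and 30.3 CPM in embryo and 5.61, 6.65 and 7.39 CPM in endosperm, for a log2 fold change of 2.14 (standard error 0.114, edgeR adjusted p = 1.38e-06). The alpha subunit of the plastid chaperonin (Solyc06g075010.4.1, 1.31), which folds RuBisCo and other plastid proteins, had 51.4, 51.6 and 34.3 CPM in embryo and 16.6, 20.7 and 18.1 CPM in endosperm. Of structural subunits, PnsL4 (Solyc04g054520.3.1, 1.58) was higher in embryo, while NdhM (Solyc04g057980.3.1, -3.56), PnsB1 (Solyc03g116870.3.1, -1.28) and an NdhB ID (Solyc10g061887.1.1, -1.31) were lower. These 4 subunits were chosen after their values were seen, and their highest level in any library was 3.43 CPM. Photosystem I had 1 higher and 1 lower gene of 13 tested members, and plastid ATP synthase had 1 and 1 of 13. Each of these counts is 7.69% of its list, beside 13.6% higher and 18.1% lower among all tested genes.

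**Figure D2:**
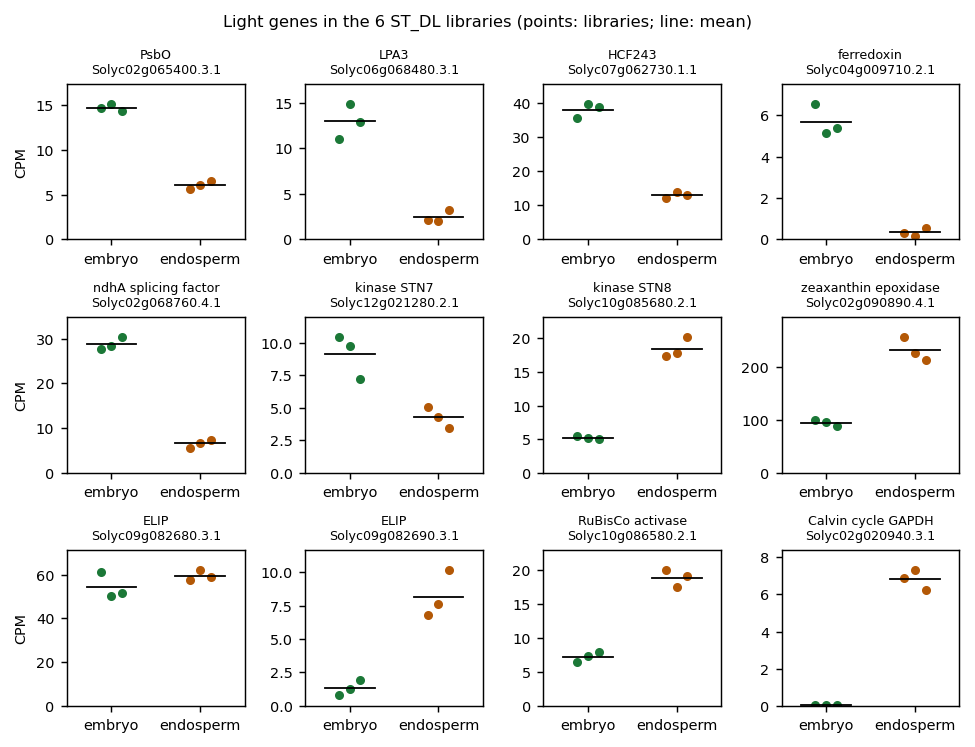
CPM of 12 light genes in the 3 embryo and the 3 endosperm libraries of ST_DL, on linear axes that start at 0, with a point for each library and a line for the mean. PsbO (14.7, 15.1 and 14.4 against 5.61, 6.05 and 6.51 CPM), the assembly factors LPA3 and HCF243, the ferredoxin, the splicing factor and STN7 were higher in embryo, while STN8, zeaxanthin epoxidase, 1 ELIP, RuBisCo activase and Calvin cycle GAPDH were higher in endosperm, and the other ELIP overlapped.

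Photoprotection genes adjust light capture and dissipate excess energy. They went in both directions, with 2 higher and 3 lower of 12 tested members (16.7% and 25%, beside 13.6% and 18.1% of all tested genes). STN7 and STN8 are thylakoid protein kinases, which in Arabidopsis act mainly on antenna and photosystem II core proteins. STN7 (Solyc12g021280.2.1) had 10.4, 9.78 and 7.25 CPM in embryo and 5.07, 4.27 and 3.43 CPM in endosperm, for a log2 fold change of 1.10 (standard error 0.197, edgeR adjusted p = 0.00126) that fell under the thresholds in 3 alternatives, among them those without ST_DL_Em_1 or ST_DL_End_3. STN8 (Solyc10g085680.2.1) had 5.41, 5.17 and 5.05 CPM in embryo, against 17.3, 17.9 and 20.2 CPM in endosperm (log2 fold change -1.82, standard error 0.107, edgeR adjusted p = 2.20e-06). The kinase genes thus had opposite tissue balances, with no overlap between the tissues for either.

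Both enzymes of the xanthophyll cycle were lower in embryo. Zeaxanthin epoxidase (Solyc02g090890.4.1), whose product is also a precursor of abscisic acid, had 98.9, 97.0 and 88.8 CPM in embryo and 257, 226 and 213 CPM in endosperm. The log2 fold change was -1.29 (standard error 0.0877, edgeR adjusted p = 5.09e-06). Violaxanthin de-epoxidase (Solyc04g050930.3.1), which runs the opposite reaction under strong light, had 1 count over the embryo libraries and 47 over the endosperm libraries, all of which lay under 1 CPM. The lipocalin LCNP (Solyc12g005180.2.1, 1.33), a regulator of energy dissipation in Arabidopsis, was higher in embryo. The summed level of the 12 tested members was 198, 201 and 186 CPM in embryo and 352, 313 and 299 CPM in endosperm, and zeaxanthin epoxidase made up most of it in endosperm.

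The Calvin cycle, which fixes carbon dioxide, had 3 higher and 8 lower genes among 36 tested members. These are 8.33% and 22.2%, beside 13.6% and 18.1% of all tested genes, and the median log2 fold change was -0.12. Calvin cycle glyceraldehyde 3-phosphate dehydrogenase (Solyc02g020940.3.1) had 0.0474, 0.0466 and 0.0468 CPM in embryo, against 6.91, 7.29 and 6.22 CPM in endosperm. That is 3 counts against 417, a ratio of 145 in favour of endosperm with a 95% counting interval of 49.3 to 706. The following members were chosen after their values were seen. A transketolase (Solyc10g018300.3.1, -5.96) had 0.237, 0 and 0.14 CPM in embryo and 10.7, 7.59 and 6.27 CPM in endosperm. Another transketolase (Solyc05g050970.4.1, -1.26), with 94.9, 72.4 and 74.2 CPM in embryo and 206, 198 and 175 CPM in endosperm, was lower as well. The most abundant transketolase (Solyc01g018020.3.1) averaged 249.7 CPM in embryo and 251 CPM in endosperm and was not a DEG (-0.01). RuBisCo activase (Solyc10g086580.2.1), which removes inhibitors from the carbon-fixing enzyme, had 6.50, 7.41 and 7.86 CPM in embryo, against 20.0, 17.5 and 19.1 CPM in endosperm (-1.38).

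In contrast, NADPH-dependent malate dehydrogenase (Solyc03g071590.3.1), which exports reducing power from the plastid, was higher in embryo with 122, 121 and 113 CPM, against 51.8, 52.4 and 49.4 CPM in endosperm (log2 fold change 1.21, standard error 0.0654, edgeR adjusted p = 1.4e-06). It was chosen after its values were seen. Summed over the tested Calvin cycle members the level was 3326, 3290 and 3235 CPM in embryo and 2832, 2927 and 2818 CPM in endosperm, so the sum lay higher in embryo although more members were lower there. Photorespiration recovers carbon from the side reaction of RuBisCo, and its 18 tested members had a median log2 fold change of -0.37. Of these members 0 were higher and 3 were lower (0% and 16.7%, beside 13.6% and 18.1% of all tested genes). Without ST_DL_Em_1, with the filter applied anew, 6 were lower. The named DEG of photorespiration was serine hydroxymethyltransferase (Solyc05g053810.3.1), with 9.06, 8.15 and 6.78 CPM in embryo and 34.8, 24.7 and 23.4 CPM in endosperm (-1.79). The other tested genes of this enzyme were not DEGs, and the most abundant of them (Solyc08g065490.3.1) had a log2 fold change of 0.98.

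Genes annotated to respond to light were found in the GO part only. Of 6 tested members with the term for response to light stimulus, 1 was higher and 2 were lower in embryo. That is 16.7% and 33.3%, beside 13.6% and 18.1% of all tested genes. The tissues did not overlap for any of the 6 (beside 71.4% of all tested genes without overlap). Solyc01g008890.4.1, a transcription factor that also carries the term for response to abscisic acid, had 75.6, 87.6 and 90.6 CPM in embryo and 31.5, 34.3 and 36.3 CPM in endosperm, for a log2 fold change of 1.31 (standard error 0.0922, edgeR adjusted p = 6.06e-06). Solyc01g015000.3.1, a regulator of acetylglutamate kinase by its GO terms, had 2 counts over the embryo libraries and 185 over the endosperm libraries, a ratio of 96.5 in favour of endosperm with a 95% counting interval of 26.3 to 803. Solyc01g021730.2.1, a DNA-binding protein, had a log2 fold change of -1.47 at no more than 1.19 CPM. The only tested gene with the term for response to blue light was Solyc01g010130.4.1, a transcription factor with the term for response to gibberellin as well. It had 55.5, 61.7 and 52.3 CPM in embryo and 21.0, 16.4 and 18.9 CPM in endosperm (log2 fold change 1.59, standard error 0.109, edgeR adjusted p = 5.45e-06).

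**Figure D3:**
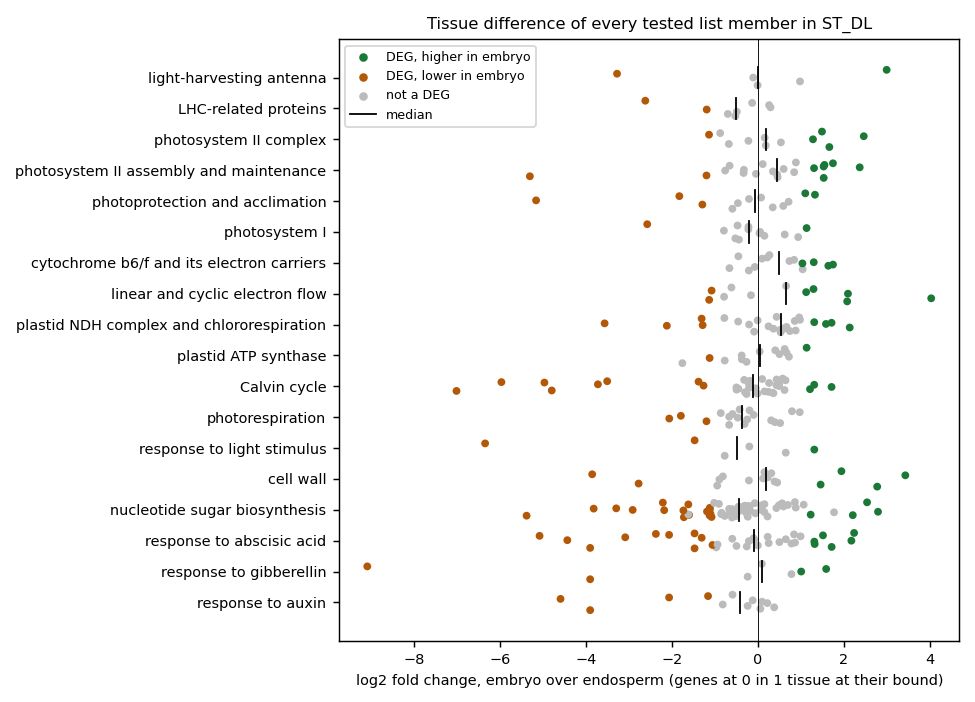
Log2 fold change (embryo over endosperm) of every tested member of the light, cell wall and hormone lists with 5 or more tested members, coloured by whether the gene was a DEG higher in embryo, a DEG lower in embryo or not a DEG, with a line for each list's median. Medians lie between -0.51 and 0.66, close to 0, and the largest differences are towards endosperm, among the gibberellin, Calvin cycle and light stimulus genes.

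Cell wall genes were taken from the GO term for the cell wall and from the Mapman bins of nucleotide sugars, the building blocks of wall polysaccharides. Of 16 tested members with the cell wall term, 4 were higher in embryo and 2 were lower. These are 25.0% and 12.5%, beside 13.6% and 18.1% of all tested genes, and the median log2 fold change was 0.19. Without ST_DL_Em_1, with the filter applied anew, 4 were lower. Solyc01g066880.3.1, annotated as a protein that binds cadmium and lead, had 119, 128 and 121 CPM in embryo and 31.2, 31.1 and 33.3 CPM in endosperm, for a log2 fold change of 1.95 (standard error 0.0684, edgeR adjusted p = 1.74e-07). The peroxidase Solyc01g058520.4.1, of an enzyme class that can cross-link wall polymers, had 6.45, 7.83 and 7.58 CPM in embryo and 0.435, 1.09 and 0.49 CPM in endosperm (3.43). Both were clearly separated between the tissues.

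Enzymes that act on wall polysaccharides went in both directions. Solyc01g059940.2.1, with GO terms for pectinesterase and its inhibition and for cell wall organization, had no count in embryo and 2.80, 1.29 and 2.01 CPM in endosperm, and was at least 14.4-fold lower in embryo. Pectinesterases remove methyl groups from pectin. Solyc01g005120.3.1, with the term for xyloglucan:xyloglucosyl transferase activity, which cuts and rejoins xyloglucan chains, had 3.79, 3.26 and 2.76 CPM in embryo and 0.918, 0.248 and 0.245 CPM in endosperm (2.78). A glucanase by its GO terms, Solyc01g005830.4.1, had 5.55, 5.54 and 7.81 CPM in embryo and 2.22, 2.58 and 2.06 CPM in endosperm (1.46). These 2 genes were chosen after their values were seen. Of 4 tested genes with the term for cell wall organization the pectinesterase was the single DEG. Solyc01g009420.4.1 of that list had 89.4, 71.0 and 60.4 CPM in embryo and 122, 114 and 98.8 CPM in endosperm without being a DEG (-0.60, edgeR adjusted p = 0.00585). Over the genes with the cell wall term, the summed level was 1885, 2276 and 2073 CPM in embryo and 1408, 1681 and 1636 CPM in endosperm. Solyc01g008080.3.1, which was not a DEG (0.45), made up most of it, with means of 1452 CPM in embryo and 1061 CPM in endosperm.

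Nucleotide sugar genes held more DEGs that were lower in embryo than higher. Of 60 tested members 4 were higher and 16 were lower (6.67% and 26.7%, beside 13.6% and 18.1% of all genes), and their median log2 fold change was -0.45. UDP-N-acetylglucosamine pyrophosphorylase (Solyc02g068530.4.1) had 1.61, 0.839 and 0.748 CPM in embryo and 46.3, 46.6 and 40.6 CPM in endosperm, for a log2 fold change of -5.38 (standard error 0.214, edgeR adjusted p = 3.09e-07). Myo-inositol-1-phosphate synthase (Solyc04g054740.3.1), which opens the inositol route to UDP-glucuronic acid and also supplies phytate and raffinose sugars, had 20.3, 12.1 and 16.0 CPM in embryo and 2.75, 2.18 and 2.01 CPM in endosperm (2.80). The remaining genes of this and the next paragraph were chosen after their values were seen. L-arabinose kinase (Solyc07g016170.4.1), which salvages arabinose, had 3.75, 3.63 and 2.99 CPM in embryo, against 54.2, 46.3 and 45.9 CPM in endosperm (-3.82). The more abundant L-arabinose kinase Solyc08g069231.1.1 had the opposite order, with 293, 304 and 267 CPM in embryo and 210, 134 and 125 CPM in endosperm, but lay under the fold threshold (log2 fold change 0.88, standard error 0.182, edgeR adjusted p = 0.00277).

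Enzymes that make precursors of pectin and xylan had members on both sides. UDP-glucose 6-dehydrogenase (Solyc02g088690.4.1, -1.60, the DEG of 2 tested members) makes UDP-glucuronic acid, and UDP-glucuronic acid decarboxylase (Solyc05g054590.4.1) turns it into UDP-xylose. The decarboxylase had 14.7, 21.2 and 19.3 CPM in embryo and 59.9, 59.7 and 63.5 CPM in endosperm (log2 fold change -1.73, standard error 0.129, edgeR adjusted p = 8.3e-06). It was the single DEG of 7 tested decarboxylases. Of the others, Solyc04g011400.3.1 had 15.7, 16.7 and 15.25 CPM in embryo and 29.3, 28.8 and 27.3 CPM in endosperm (-0.84, edgeR adjusted p = 3.10e-05). In the opposite order, Solyc09g075120.3.1 had 46.7, 51.9 and 43.6 CPM in embryo and 30.4, 31.2 and 25.8 CPM in endosperm (0.70, edgeR adjusted p = 0.000364). Solyc11g066150.3.1 had a log2 fold change of 0.57 (edgeR adjusted p = 0.0419), and none of these genes reached the fold threshold. UDP-rhamnose synthase (Solyc10g007480.4.1, -1.62) and 2 UDP-xylose 4-epimerases (Solyc02g069580.3.1, -1.12, and Solyc07g043550.3.1, -3.29) were lower as well. GDP-mannose pyrophosphorylase (Solyc06g051270.3.1), which feeds mannan and ascorbate synthesis, had 54.7, 36.2 and 40.8 CPM in embryo and 172, 228 and 196 CPM in endosperm (-2.18). The bin of UDP-glucuronic acid 4-epimerase held 1 member that was lower (Solyc01g091200.4.1, -1.07) and 1 that was higher in embryo (Solyc12g010540.1.1, 2.54). Of the inositol route, both tested genes of myo-inositol oxygenase, which opens the ring of inositol to glucuronic acid, were lower in embryo. Solyc06g062430.3.1 had 0.522, 0.466 and 0.748 CPM in embryo, against 4.54, 4.41 and 4.21 CPM in endosperm (-2.91), and Solyc12g008650.2.1 had a log2 fold change of -2.21 at under 2 CPM. Glucuronic acid kinase (Solyc02g093440.4.1), the enzyme after the oxygenase, was higher in embryo, with 71.7, 71.3 and 61.3 CPM against 28.7, 29.8 and 28.6 CPM in endosperm (1.23).

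Hormone genes were those with a GO term for response to a hormone, so each term marks a response and not a role in making or sensing it. For abscisic acid, 6 of 33 tested members were higher in embryo and 10 were lower. These are 18.2% and 30.3%, beside 13.6% and 18.1% of all tested genes, and the median log2 fold change was -0.10. The tissues did not overlap for 27 members (81.8%, beside 71.4% of all tested genes). Transcription factors stood on both sides. Solyc01g009860.3.1 had 8.73, 7.64 and 6.92 CPM in embryo, against 166, 152 and 185 CPM in endosperm, for a log2 fold change of -4.43 (standard error 0.119, edgeR adjusted p = 6.03e-08). Solyc01g065980.4.1, chosen after its values were seen, had 84.4, 94.9 and 108 CPM in embryo, against 535, 461 and 491 CPM in endosperm (-2.37). Both were lower in embryo, unlike the light-annotated factor Solyc01g008890.4.1 of the same list.

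Solyc01g066570.3.1, which also carries GO terms for seed dormancy, kinase binding and stress granules, was higher in embryo. It had 39.8, 40.7 and 38.9 CPM in embryo and 8.89, 7.94 and 8.42 CPM in endosperm, for a log2 fold change of 2.24 (standard error 0.0815, edgeR adjusted p = 2.07e-07). Solyc01g009160.2.1, with a term for increased abscisic acid synthesis, had 8.68, 7.69 and 24.7 CPM in embryo and 2.13, 2.78 and 4.16 CPM in endosperm (2.18). Of the embryo libraries, ST_DL_Em_3 lay well above its replicates. The caleosin Solyc01g005410.4.1, a calcium-binding protein of oil bodies that was chosen after its values were seen, was higher in embryo as well (1.72).

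Of the tested members of the abscisic acid list, 3 had no count in embryo. Solyc01g058210.3.1, an actin-binding protein by its GO terms, had 4.64, 4.61 and 4.99 CPM in endosperm and was at least 33.7-fold lower in embryo. The transcription factors Solyc01g014720.3.1 and Solyc01g058540.3.1 were at least 8.47-fold and at least 4.18-fold lower in embryo, with 0.483 to 1.44 CPM in endosperm. The last of them carries terms for auxin and ethylene as well and was the single DEG of 4 tested ethylene genes. Solyc01g058210.3.1 and Solyc01g014720.3.1 were chosen after their values were seen. Summed over the abscisic acid list, the level was 741, 790 and 806 CPM in embryo and 1286, 1206 and 1283 CPM in endosperm. This difference rested on Solyc01g065980.4.1 (means of 95.9 CPM in embryo and 496 CPM in endosperm) and Solyc01g009860.3.1 (7.76 and 167 CPM). It does not describe the list as a whole.

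The gibberellin list had 7 tested members. In embryo 2 were higher and 2 were lower (28.6% each, beside 13.6% and 18.1% of all tested genes). The gibberellin 2-beta-dioxygenase given above and Solyc01g005370.3.1 were the lower ones. Solyc01g005370.3.1, a calcium-binding protein that carries terms for abscisic acid, gibberellin and auxin, had 2.23, 1.63 and 0.889 CPM in embryo, against 26.2, 20.1 and 24.7 CPM in endosperm (log2 fold change -3.90, standard error 0.257, edgeR adjusted p = 4.35e-06). Of the higher ones, the blue light factor Solyc01g010130.4.1 is given above. Solyc01g008980.3.1, a transcription factor with the GO term for negative regulation of seed germination, had 38.7, 35 and 28.9 CPM in embryo and 16.4, 18.1 and 16.4 CPM in endosperm. Its log2 fold change of 1.01 lay at the fold threshold, and the call was lost in 9 of 16 alternatives. The other 3 tested members (Solyc01g008120.4.1, Solyc01g008230.4.1 and Solyc01g066730.4.1) had log2 fold changes of -0.24, 0.78 and 0.09.

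No tested member of the auxin list was higher in embryo, and 4 of 12 were lower (33.3%, median -0.41). Of all tested genes 13.6% were higher and 18.1% lower, and the list covers only the IDs with GO terms used here. Solyc01g057270.4.1 and Solyc01g060170.4.1 are both calmodulin-binding transcription factors by their GO terms. The first had 0.712, 0.28 and 0.561 CPM in embryo, against 12.6, 11.9 and 13.2 CPM in endosperm, for a log2 fold change of -4.59 (standard error 0.246, edgeR adjusted p = 1.38e-06). The second had 4.65, 3.82 and 3.56 CPM in embryo, against 8.89, 9.47 and 8.47 CPM in endosperm (-1.16). Of the 3 tested genes with the term for seed germination, Solyc01g005090.3.1 was lower in embryo, with 1.04, 0.839 and 1.5 CPM against 3.67, 3.47 and 2.25 CPM in endosperm (-1.47).

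**Figure D4:**
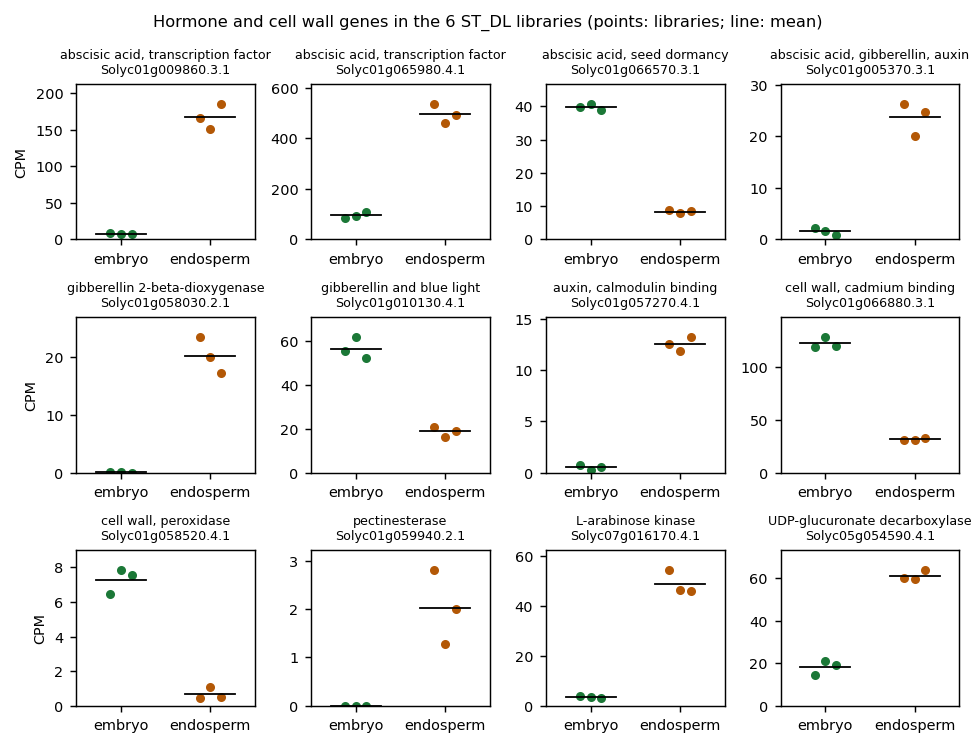
CPM of 12 hormone and cell wall genes in the 3 embryo and the 3 endosperm libraries of ST_DL, on linear axes that start at 0, with a point for each library and a line for the mean. The 4 genes with seed dormancy, gibberellin and blue light, cadmium binding and peroxidase terms were higher in embryo, and the other 8 were higher in endosperm, with no overlap in any panel.

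The tissue difference was then set beside that of the 3 other conditions, whose libraries are separate samples. Under ST_HL 2629 genes were higher and 2792 lower in embryo (13.6% and 14.5% of 19309), under HT_HL 2459 and 3488 (13.3% and 18.8% of 18525), and under HT_DL 2548 and 2994 (13.1% and 15.5% of 19377). Of the genes higher in embryo in ST_DL, 1991 were also higher in ST_HL (79.4% of the ST_DL genes and 75.7% of the ST_HL genes). The lower genes shared with ST_HL numbered 2324 (69.6% and 83.2%). In ST_HL and HT_DL embryo, replicates 2 and 3 stood apart, with 18811 to 19034 genes at 10 or more counts, against 17193 to 17494 in replicates 1 and 4. Without them, a choice made after the data were seen, ST_HL shared 2028 higher and 2924 lower genes with ST_DL (80.9% and 87.5% of the ST_DL genes, 75.7% and 75.7% of the ST_HL genes). With all libraries, 1434 genes were higher and 1939 lower in all 4 conditions. Being a DEG in one condition and not in another does not show that the tissue difference changed.

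Among photosynthesis genes, 43 of the 62 DEGs were DEGs in the same direction in ST_HL, 44 in HT_HL and 39 in HT_DL. The same was true of 13, 10 and 12 of the 16 abscisic acid DEGs and of 9, 13 and 12 of the 20 nucleotide sugar DEGs. Over all ST_DL genes, 79.4% of the higher and 69.6% of the lower DEGs were repeated in ST_HL. In HT_HL these shares were 66.5% and 75.1%, and in HT_DL they were 75.2% and 70%. Without embryo replicates 2 and 3 of ST_HL and HT_DL, 51 and 44 of the photosynthesis DEGs were repeated in those conditions. So were 13 and 13 of the abscisic acid DEGs and 20 and 18 of the nucleotide sugar DEGs. The shares over all higher and lower ST_DL DEGs were then 80.9% and 87.5% in ST_HL and 75.6% and 86.0% in HT_DL.

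The 3 photorespiration DEGs turned on these replicates. With all libraries none of them was repeated in ST_HL or HT_DL and all 3 were in HT_HL, and without embryo replicates 2 and 3 all 3 were repeated in ST_HL and in HT_DL. Serine hydroxymethyltransferase (Solyc05g053810.3.1) had 7.04, 41.2, 56.3 and 10.5 CPM in ST_HL embryo replicates 1 to 4, against 22.8, 32.3 and 28.1 CPM in ST_HL endosperm, on the scale of all libraries. In HT_DL it had 6.53, 53.3, 50.9 and 9.07 CPM in embryo, against 26.2, 27.0 and 40.3 CPM in endosperm. Embryo replicates 2 and 3 thus lay above the endosperm libraries and replicates 1 and 4 below them in both conditions. Its log2 fold change was 0.08 in ST_HL and -0.04 in HT_DL with all libraries, -1.69 and -2.01 without replicates 2 and 3, and -1.64 in HT_HL. LHCa3 (Solyc12g011280.2.1) had log2 fold changes of 1.81 in ST_HL, 1.27 in HT_DL and -0.91 in HT_HL.

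**Figure D5:**
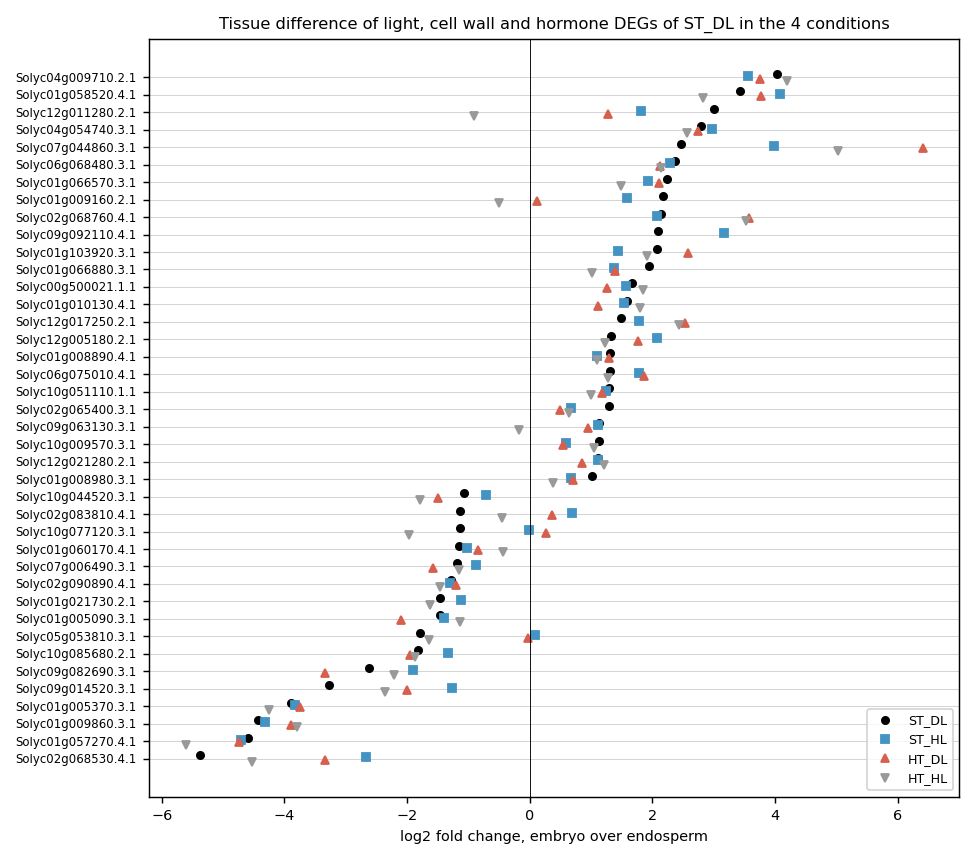
Log2 fold change (embryo over endosperm) of 40 DEGs of ST_DL from the light, cell wall and hormone lists in ST_DL, ST_HL, HT_DL and HT_HL, for genes with more than 3 counts in each tissue. With all libraries included, the sign was that of ST_DL for 38 of 40 genes in ST_HL, 36 of 39 in HT_HL and 36 of 38 in HT_DL, and Solyc12g011280.2.1 and Solyc01g009160.2.1 are among the genes whose points reach across 0.

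Whether dim light changed the tissue difference was tested as an interaction over all 26 libraries, with 21153 genes. The biological coefficient of variation of this fit was 0.306, beside 0.143 over the 6 ST_DL libraries. A larger spread lowers the power, so a gene without a call is not shown to keep its tissue difference. Against ST_HL, 5 genes had a more positive and 2 a more negative tissue difference in ST_DL (0.0236% and 0.00945% of the genes). None of them was in the light, cell wall or hormone lists, but the annotation used here describes just 2658 of the 33976 IDs. Only Solyc01g006650.2.1 among these genes is described. The others could not be in any list, so nothing follows from this for light, cell wall or hormone genes. Against HT_DL, which shares the dim light and differs in temperature, there were 32 and 12 (0.151% and 0.0567%). Without embryo replicates 2 and 3 of the condition compared the numbers were 2 and 3 against ST_HL and 25 and 11 against HT_DL. Those replicates of the other condition stayed in each fit and still entered its shared spread. DESeq2 called 29 and 33 genes against ST_HL and 119 and 78 against HT_DL.

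The ndhA-specific splicing factor (Solyc02g068760.4.1) was the described gene whose tissue difference lay furthest below that of HT_DL. On the scale of all 26 libraries it averaged 31.7 CPM in ST_DL embryo and 7.19 CPM in ST_DL endosperm, and 17.1 CPM in HT_DL embryo and 1.43 CPM in HT_DL endosperm. The tissue differences were 2.14 and 3.58 on the log2 scale, an interaction of -1.43 (standard error 0.289, edgeR adjusted p = 0.0362). Solyc01g008420.3.1, an iron and citrate transport gene by its GO terms that also carries the term for response to abscisic acid, averaged 16.3 CPM in ST_DL embryo and 13.6 CPM in ST_DL endosperm, and 10.0 CPM in HT_DL embryo and 20.6 CPM in HT_DL endosperm. Its interaction was 1.30 (standard error 0.26, edgeR adjusted p = 0.0353). The call was lost in 11 of 19 alternatives for the splicing factor, with interactions from -1.75 to -1.25, and in 12 of 19 for the transport gene, with interactions from 1.09 to 1.43. Leaving out any single ST_DL library other than endosperm replicate 1 ended the call of the splicing factor.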

How the data were processed

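Libraries of 50 bp reads were sequenced on the BGISEQ-500 after mRNA enrichment. Per the study's methods the authors quantified reads with Salmon on ITAG4.0 transcripts of build SL4.0, and they deposited expected counts (estimated counts per transcript, not normalized), 10.5% of which are not whole. Salmon divides reads among similar transcripts, and whether strand was used is not given in the sources used here.

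Columns were matched to libraries by title. Counts were rounded, filtered (filterByExpr in edgeR 4.0.16, minimum count 10, minimum total 15), TMM-normalized and tested by edgeR's quasi-likelihood F-test in R 4.3.3, over the 6 ST_DL libraries (1 coefficient per tissue) and, for interactions, over all 26 (1 coefficient per group, 21153 genes). P-values were Benjamini-Hochberg adjusted over all genes tested, and the DEG thresholds were 0.05 for that value and 1 for the size of the log2 fold change. CPM are on TMM-scaled library sizes. Genes at 0 in a tissue were set to a floor of 3 counts per library for lower bounds, and ratios with 1 to 3 counts have exact 95% counting intervals, which cover counting error only. Depth was nearly equal, so the spread between replicates limits precision except near the floor. The steps were tested on simulated data.

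The RefSeq gene table held no match for the 33976 IDs, and no sequences or positions are given and lists rest on GO terms and Mapman bins. The members and lists were chosen with earlier results of these data known. Genes named are the 5 described DEGs with the largest fold change in each direction (at least 10 CPM, no overlap), the strongest DEG of a list in each direction (up to 2 for GO lists, at least 5 CPM), all members of light, wall and hormone lists of at most 12 tested genes where space allowed, and the 2 strongest described genes of each interaction and direction. Genes outside the rule are marked in the text. A cytokinin list and lists of tissue markers held no usable member. Alternatives were DESeq2 1.42.0, limma 3.58.1 voom, other scalings, filters and fold thresholds, a fit of all libraries, a replicate block and leaving out each library.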

Additional observations from a re-analysis of the deposited data

Results flagged for a closer look

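The results here are those for which the tissue difference itself differed between ST_DL and another condition. Against ST_HL, 5 genes had a higher and 2 a lower tissue difference in ST_DL, and against HT_DL 32 were higher and 12 lower. These sets overlap in 4 genes, which have no description in the annotation used here, and both interactions use the ST_DL libraries.

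Solyc01g006650.2.1, a transcription factor with GO terms for response to hypoxia and to bacteria, was the described gene against ST_HL. On the scale of all libraries it averaged 11.4 CPM in ST_DL embryo and 20.4 CPM in ST_DL endosperm, and 14.1 CPM in ST_HL embryo and 9.30 CPM in ST_HL endosperm. The interaction was -1.44 on the log2 scale (standard error 0.246, edgeR adjusted p = 0.0339). The call was lost in 12 of 19 alternatives, with values from -1.67 to -1.30 and adjusted p from 3.13e-05 to 0.17 by edgeR or DESeq2.

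Against HT_DL, arogenate dehydratase (Solyc11g066890.1.1), an enzyme of phenylalanine synthesis, had a tissue difference of 2.09 in ST_DL and 0.24 in HT_DL. It averaged 10.9 CPM in ST_DL embryo and 2.55 CPM in ST_DL endosperm, and 12.4 CPM in HT_DL embryo and 10.5 CPM in HT_DL endosperm. The interaction was 1.86 (standard error 0.374, edgeR adjusted p = 0.0362). The ndhA-specific splicing factor (Solyc02g068760.4.1) had an interaction of -1.43, and the iron and citrate transport gene Solyc01g008420.3.1 one of 1.30. These 3 calls were lost in 11, 11 and 12 of 19 alternatives, while the sign was kept in every one of them.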

How the results depend on the processing

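The 2507 higher and 3340 lower DEGs became 1271 and 1691 with a filter of at least 5 CPM in 3 libraries, which tests fewer genes, and 5998 and 6069 without the fold threshold. Under the other alternatives they stayed within 1.5 times, as with DESeq2 (2343 and 3359), and leaving out 1 library gave 2513 to 2651 higher and 3328 to 3763 lower. Each fit without a library applied the filter on low counts anew, so its tested genes were not the same set. Without TMM factors there were 2736 higher and 3185 lower. The median log2 fold change was 0.01 with TMM, -0.03 with DESeq2 or RLE factors and 0.08 without factors. The interaction counts moved more, and the cause was not tested. Against ST_HL (5 higher and 2 lower) DESeq2 gave 29 and 33, the libraries of both conditions alone 9 and 5, leaving out ST_HL_Em replicates 2 and 3 gave 2 and 3, and leaving out 1 library gave 1 to 5 higher and 0 to 3 lower. Against HT_DL (32 and 12) DESeq2 gave 119 and 78, and leaving out 1 library gave 16 to 35 higher and 3 to 12 lower.

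Embryo and endosperm libraries with the same replicate number had correlated deviations of 0.189, 0.0609 and 0.189. For libraries with different numbers the values lay lower, from -0.2 to 0.0597. The labels name nothing that a number shares, and whether it stands for the same seeds in both tissues is not stated. The numbers were therefore not used as pairs in the main tests. With the replicate number as a block the DEGs were 2513 higher and 3341 lower, the genes against ST_HL 7 and 5, and those against HT_DL 55 and 26.

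Of 1962 values of the named genes, 1886 kept their call or stayed without one, 55 lost it, 21 gained one and none reversed a call. Among the values that were not DEGs in either fit, 26 changed sign. PsbY (Solyc10g077120.3.1) lost its call in 10 of 15 alternatives, Solyc01g008980.3.1 in 9 of 16 and triose-phosphate isomerase (Solyc04g011510.4.1) in 8 of 16. Chosen after the data were seen, list counts were repeated under DESeq2, without TMM factors and without ST_DL_Em_1 or ST_DL_End_1. Without TMM factors 7 NDH genes were higher in place of 4, and without ST_DL_End_1 there were 5 higher Calvin cycle genes in place of 3. Values under 1 CPM rest on few counts and are limited by depth.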

Other observations

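Outside the light, cell wall and hormone genes, several lists of lipid metabolism held more DEGs lower in embryo than higher. Of 32 tested genes of fatty acid degradation and the glyoxylate cycle, 2 were higher in embryo and 13 were lower (40.6%, beside 18.1% of all tested genes), with a median log2 fold change of -0.53. The genes named in this section outside the naming rule were chosen after their values were seen. Isocitrate lyase (Solyc07g052480.3.1), which with malate synthase turns fatty acid carbon into sugar precursors, had 832, 341 and 355 CPM in embryo, against 3002, 1911 and 1887 CPM in endosperm (log2 fold change -2.15, standard error 0.362, edgeR adjusted p = 0.000879). Replicate 1 was the highest in each tissue. Malate synthase (Solyc03g111140.3.1) had 799, 674 and 689 CPM in embryo, against 2616, 2358 and 2320 CPM in endosperm (-1.75). The other tested malate synthase, Solyc03g111130.1.1, was higher in embryo (1.05) with 1.71, 3.17 and 3.56 CPM, against 1.26, 1.69 and 1.13 CPM in endosperm. The multifunctional protein of beta-oxidation (Solyc12g099440.3.1, -1.25), 3-ketoacyl-CoA thiolase (Solyc09g091470.3.1, -1.28) and aconitase (Solyc12g005860.2.1, -1.13) were lower in embryo too. Summed over the list, the level was 4876, 3630 and 3722 CPM in embryo and 11254, 9668 and 9307 CPM in endosperm. Of the 15 DEGs, 9 were DEGs in the same direction in ST_HL, 12 in HT_HL and 9 in HT_DL. Without embryo replicates 2 and 3 of ST_HL and HT_DL 15 and 14 were. The shares repeated over all ST_DL DEGs are given above.

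Oil body proteins, which coat the stored lipid, had 4 of 23 tested members higher in embryo and 0 lower (17.4% and 0%, beside 13.6% and 18.1% of all tested genes), and their median log2 fold change was 0.19. Members under the fold threshold lay on both sides. The caleosin Solyc01g005400.3.1 had 57.0, 49.1 and 52.4 CPM in embryo, against 91.1, 109.9 and 109 CPM in endosperm (-0.97, edgeR adjusted p = 4.12e-05). The oleosin Solyc06g069260.1.1 (-0.42) and the steroleosin Solyc06g064650.4.1 (-0.39) had no overlap between the tissues either. An oleosin (Solyc02g086490.3.1) had 140, 95.8 and 91.8 CPM in embryo and 9.04, 10.9 and 12.7 CPM in endosperm (3.33), and a steroleosin (Solyc03g097440.3.1) had 207, 206 and 200 CPM in embryo and 53.9, 52.9 and 55.6 CPM in endosperm (1.92). The elongase system, which makes the very long fatty acids of waxes and suberin, had 1 higher and 9 lower genes of 15 tested (60.0% lower, median -1.06). Of its 11 tested 3-ketoacyl-CoA synthases 1 was higher and 5 were lower, among them Solyc08g067260.4.1, with 16.8, 16.9 and 13.5 CPM in embryo, against 184, 160 and 152 CPM in endosperm (-3.39). In shikimate family amino acid synthesis 5 genes were higher and 12 lower of 32 tested (15.6% and 37.5%). The first enzyme, DAHP synthase, had members on both sides. Of 4 tested, the most abundant (Solyc11g009080.2.1) had 1281, 1098 and 1102 CPM in embryo, against 4877, 5304 and 4980 CPM in endosperm (-2.12). Another was lower too, and Solyc01g105383.1.1 was higher in embryo, with 49.2, 17.0 and 21.1 CPM against 6.38, 3.03 and 8.47 CPM in endosperm (2.29).

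Members of 1 enzyme bin could stand on opposite sides. Of 60 Mapman bins with at least 2 DEGs, 25 held both higher and lower ones, 7 only higher and 28 only lower ones. Over all tested genes 2507 DEGs were higher and 3340 were lower (13.6% and 18.1%). Whether bins mixed the directions more or less often than DEGs taken without regard to bin was not tested. Some genes belong to more than 1 bin, so the bins are not all separate enzymes. The aminotransferases Solyc12g088220.2.1 (higher) and Solyc07g021630.3.1 (lower), for example, recur in several of the 25. Succinate dehydrogenase is an example across subunits, with an SDH2 gene (Solyc04g055030.2.1, 1 of 2 higher and 1 lower of 4 tested) at 62, 52.8 and 59.5 CPM in embryo and 8.17, 9.72 and 10.5 CPM in endosperm (2.62), and SDH1 (Solyc02g085350.4.1) at 65.2, 58.6 and 58.2 CPM in embryo, against 254, 179 and 180 CPM in endosperm (-1.75). Close by ID, acid invertase Solyc09g010090.5.1.1 was higher (1.03) and Solyc09g010080.3.1 lower (-2.11) in embryo.

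The 133 genes found in endosperm alone were spread unevenly by ID number along the chromosomes. With the IDs of each chromosome cut into 10 equal stretches, they made up 1.07% to 1.47% of the tested genes in stretches 2 to 6, and 0.14% to 0.53% in stretch 1 and stretches 7 to 10. The Solyc numbers follow chromosome order, and no cause of this pattern was tested.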
